A study of Mus musculus with 8 samples.

Results

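The autophagy machinery genes are 34 mouse genes that build, load and deliver the autophagosome, and they were followed in a comparison of Hoxa9-transformed myeloid cells with and without Meis1. The members were taken by gene symbol: every probe set whose single annotated symbol is one of the 34 was used, whatever its value. Of the 34 genes, 31 had such a probe set, 62 probe sets in all, and 30 genes passed a filter on dim probe sets, out of 11836 genes tested. The cells were bone marrow cells of C57BL/6 mice with a tamoxifen-inducible Cre (CreERT2) knocked in at Rosa26, immortalized by retroviruses carrying Hoxa9 and a floxed Meis1 cDNA. All 8 samples therefore carried the Cre allele and the Hoxa9 virus, and interleukin-3 (5 ng/ml) and 10% serum were in the culture medium of both groups. The Meis1 deleted group (4 arrays) had received 2 µM 4-hydroxytamoxifen, while the Hoxa9 and Meis1 group (4 arrays) had not, so the drug and Cre activity are part of every difference. The labels give no age. They also do not tell whether the replicates were grown as separate cultures, so a p-value here reflects the spread among these samples only, and that spread may be technical.

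Autophagy is the route by which a cell encloses part of its cytoplasm in a membrane and digests it in the lysosome. A kinase complex starts the process, a lipid kinase marks the membrane, and a conjugation system resembling that of ubiquitin fixes Atg8 proteins to the growing sheet, where receptors dock their cargo before the closed vesicle fuses with a lysosome. In myeloid cells the same machinery also serves phagocytosis and the turnover of mitochondria, and much of it is regulated on the protein, which an array does not see.

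RNA was labelled from 100 ng per sample and read on 1-colour Affymetrix arrays, and the values are log2 expression values as deposited. In these values a difference of 1 is a 2-fold change of the linear level. Meis1 itself read 5.02 ± 0.0692 (SD, n = 4) after the deletion and 5.00 ± 0.0537 in the cells that kept it. The sources used here do not place its probe set relative to the retroviral cDNA, so this value is no check of the deletion or of the labels. Meis1 deleted replicate 1 stood apart from the other 7 arrays: its 3′ minus 5′ difference for the Gapdh control was 0.725 on the log2 scale, against -0.0721 to 0.0352 elsewhere, and that for actin was 0.669, against 0.319 to 0.385. Between the groups these controls gave two-sided exact permutation p-values of 0.486 and 0.543, where the smallest possible p over 70 assignments is 0.0286. The level of the spiked bioB control separated the arrays into 2 sets, and each set held arrays of both groups. Markers of the labelled myeloid cell type were present on all arrays. Their mean log2 level over 10 genes was 10.29 to 10.39 in Meis1 deleted cells and 10.28 to 10.32 in the others. Of these 10 genes, 5 rose and 4 fell, among them Lyz2 (0.72) and Cd33 (-0.96), so the means hide opposite changes. Of 13 macrophage markers, 12 were tested and all 12 rose, their mean log2 level moving from between 6.46 and 6.55 to between 9.61 and 9.75. Of 11 late neutrophil markers, 9 rose and 1 fell, with a mean level of 9.65 to 9.70 in Meis1 deleted cells and 8.72 to 8.75 in the others. None of the 5 stromal markers passed the filter, and the 5 B and T cell markers that did gave 0 calls. Of the 9 erythroid, megakaryocyte and mast cell markers tested, 3 rose and 2 fell. Pf4 of the megakaryocyte list rose by 3.84, from 6.43 to 10.27 (limma adjusted p = 1.7e-10), while Itga2b and Gp9 of that list did not pass. Epor and Ms4a2 rose by 0.22 and 0.20, and Mcpt8 and Gata2 fell by 0.74 and 0.19.

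Of the 30 autophagy genes tested, 12 changed, with Epg5 rising and Wipi1 falling the most. With a limma adjusted p under 0.05, 9 of the 30 rose and 3 fell, while 18 did not pass. Over all genes 35.5% passed, 18.1% as rises and 17.5% as falls, so 12 of 30 is near the background of this comparison. The median log2 difference of the members was 0.106, against -0.00444 for all genes. The largest rise was 0.61 (Epg5) and the largest fall -0.94 (Wipi1), and none of the members reached 2-fold, a size that 3.19% of all genes reached with an adjusted p under 0.05. In 13 members the groups did not overlap (10 with Meis1 deleted cells above, 3 below), against 38.6% of all genes (19.7% above, 18.9% below). In a culture read in bulk, a change in the share of some cells and a change in RNA per cell cannot be told apart. The macrophage and late neutrophil markers moved in the same comparison, and their part in these changes was not tested.

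**Figure D1:**
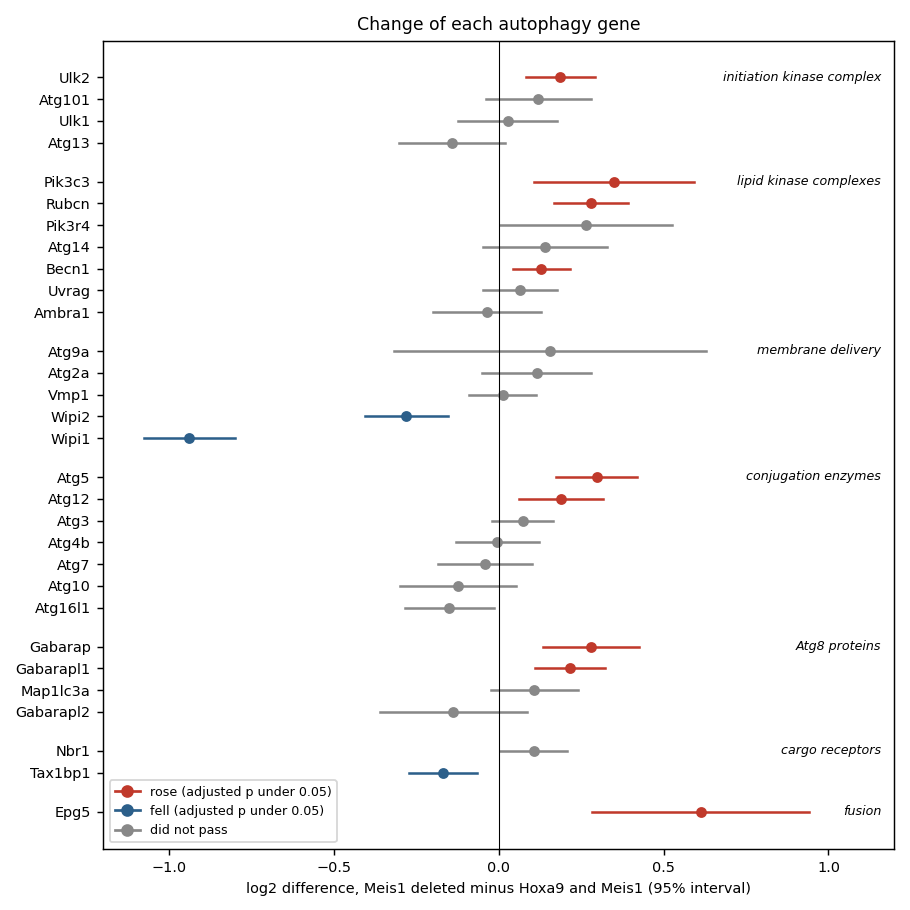
Log2 difference (Meis1 deleted minus Hoxa9 and Meis1) of the 30 autophagy genes tested, grouped by role, with the 95% interval of the limma fit over 4 and 4 arrays. Wipi1 lies alone at -0.94, the 9 risen genes (red) lie between 0.13 and 0.61, and the 18 genes in grey did not pass an adjusted p of 0.05.

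Promoters of some members with large changes are shown so that the letters of genes that rose can be set beside those of genes that fell. Promoter sequences were taken from RefSeq (GRCm38.p6; 250 bases before to 50 after the annotated start, 300 in all), which held 27 of the 34 members with 32 promoters. Each is written 5′ to 3′ on the strand of the gene, and capitals mark a match to one of 6 motifs searched on both strands, overlaps allowed: CACGTG (the E-box core bound by the Tfe and Mitf factors), TGACNNNGC (antioxidant response), GTAAACA (forkhead), the interferon response motif, TGACAG (Meis) and CCAAT. Epg5 and Pik3c3, the members with the largest rises, are named only. The promoter of Gabarapl1, which also rose, is not printed and held none of the motifs.
Wipi1, fell, chr11:109611340-109611639, minus strand: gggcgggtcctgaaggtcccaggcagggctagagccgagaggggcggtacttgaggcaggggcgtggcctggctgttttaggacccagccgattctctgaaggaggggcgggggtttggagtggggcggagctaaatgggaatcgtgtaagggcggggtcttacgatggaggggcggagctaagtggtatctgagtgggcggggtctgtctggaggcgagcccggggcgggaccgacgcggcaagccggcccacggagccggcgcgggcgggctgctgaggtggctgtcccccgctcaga
Wipi2, fell, chr5:142629334-142629633, plus strand: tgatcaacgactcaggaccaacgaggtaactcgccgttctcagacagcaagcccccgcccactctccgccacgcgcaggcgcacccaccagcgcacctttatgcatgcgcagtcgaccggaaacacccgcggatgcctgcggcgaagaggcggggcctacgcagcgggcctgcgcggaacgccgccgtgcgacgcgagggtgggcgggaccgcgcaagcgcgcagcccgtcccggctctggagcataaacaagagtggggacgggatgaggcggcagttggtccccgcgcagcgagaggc
Atg5, rose, chr10:44268089-44268388, plus strand: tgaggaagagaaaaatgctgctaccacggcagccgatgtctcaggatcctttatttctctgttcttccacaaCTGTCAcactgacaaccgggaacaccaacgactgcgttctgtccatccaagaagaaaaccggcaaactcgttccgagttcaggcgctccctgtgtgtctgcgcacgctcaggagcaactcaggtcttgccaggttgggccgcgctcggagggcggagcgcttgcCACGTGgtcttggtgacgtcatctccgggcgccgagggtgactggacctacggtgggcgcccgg
Gabarap, rose, chr11:69991120-69991419, plus strand: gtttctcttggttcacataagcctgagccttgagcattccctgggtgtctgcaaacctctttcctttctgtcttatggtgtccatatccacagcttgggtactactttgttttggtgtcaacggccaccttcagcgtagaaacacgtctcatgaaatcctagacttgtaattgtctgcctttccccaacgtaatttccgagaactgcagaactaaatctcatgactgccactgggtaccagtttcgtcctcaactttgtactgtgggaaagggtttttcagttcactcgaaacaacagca
Rubcn, rose, chr16:32868317-32868616, minus strand: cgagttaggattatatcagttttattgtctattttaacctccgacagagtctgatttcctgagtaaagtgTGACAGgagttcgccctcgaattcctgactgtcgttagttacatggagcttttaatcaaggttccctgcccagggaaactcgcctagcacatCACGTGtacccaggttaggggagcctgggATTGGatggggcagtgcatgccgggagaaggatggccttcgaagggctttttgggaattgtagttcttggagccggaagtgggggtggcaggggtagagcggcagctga
Wipi1, Wipi2 and Gabarap held none of the motifs in this window, Atg5 held CACGTG as well as TGACAG, once each, and this start of Rubcn held CACGTG as well as TGACAG and also CCAAT, once each, while its other listed start held none. CACGTG stood in 5 of the 32 member promoters (15.6%; those of Atg3, Atg5, Atg7, Atg14 and Rubcn) and in 7.15% of the 32851 promoters of the table. Of these 5 genes, Atg5 and Rubcn rose and the other three did not pass. TGACAG stood in 9 member promoters (28.1%, against 19.2% of all), TGACNNNGC in 7 (21.9%, against 12.4%), CCAAT in 8 (25.0%, against 37.4%), the interferon response motif in 1 (3.12%, against 3.44%) and GTAAACA in 0 (against 3.65%). These counts are of promoters, and a gene can have several: the 7 with TGACNNNGC belonged to 5 of the 27 members, with several starts of Vmp1 among them. A match is a description of the letters and not evidence of a bound site.

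In the initiation kinase complex, 1 of the 4 genes tested rose and none fell. Each count by role stands beside 18.1% of all genes that rose and 17.5% that fell, and no role was tested as a set. Ulk2, which codes for 1 of the 2 related kinases that start autophagy, read 7.42, 7.29, 7.28 and 7.35 on the Meis1 deleted arrays (replicates 1 to 4) and 7.19, 7.14, 7.12 and 7.15 on the Hoxa9 and Meis1 arrays. All 4 Meis1 deleted arrays were above all 4 others, and the log2 difference was 0.19 ± 0.0468 (SE; limma adjusted p = 0.0125). A dimmer probe set of Ulk2 rose by 0.37 and a further one read 0.08 without passing. Ulk1, the better known of the pair, read 6.24, 6.21, 6.07 and 6.36 in Meis1 deleted cells and 6.17, 6.11, 6.23 and 6.26 in the others. These ranges overlapped almost fully, with a log2 difference of 0.03 ± 0.0664 (95% interval -0.12 to 0.18; limma adjusted p = 0.790). Its sign turned in 4 of 21 other settings, including the mean of its probe sets (-0.00432). Atg13 and Atg101, scaffolds of the complex, differed by -0.14 and 0.12 and did not pass (limma adjusted p = 0.160 and 0.226). Without Meis1 deleted replicate 1, which read 6.13 against 5.88 to 5.95 for the other three, Atg13 fell by 0.20 (limma adjusted p = 0.0271). Rb1cc1, the large scaffold that binds Ulk1, was below the filter in both groups at 3.32 and 3.34.

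Of the 7 genes of the lipid kinase complexes, 3 rose and none fell, where 18.1% of all genes rose and 17.5% fell. These complexes make the phosphoinositide that marks the early autophagosome membrane. Pik3c3, the catalytic subunit, read 7.60, 7.15, 7.42 and 7.26 in Meis1 deleted cells and 7.18, 7.08, 6.86 and 6.91 in the others. The lowest Meis1 deleted array lay under the highest of the other group, and the log2 difference was 0.35 ± 0.107 (SE; limma adjusted p = 0.0309). The call was lost in 4 of the 8 fits that left out 1 array, with adjusted p up to 0.0873 (without Hoxa9 and Meis1 replicate 3). In those 4 fits the difference was between 0.30 and 0.37. Without Meis1 deleted replicate 1, its highest array, the difference was 0.27 and still passed (limma adjusted p = 0.0448).

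Becn1, the scaffold that joins the kinase to its regulators, showed the smallest rise among the genes that passed. It read 10.86, 10.83, 10.83 and 10.84 in Meis1 deleted cells and 10.71, 10.71, 10.70 and 10.72 in the others. The groups were narrow and did not overlap, with a log2 difference of 0.13 ± 0.0382 (limma adjusted p = 0.0267). Leaving out any array other than Meis1 deleted replicate 1 ended the call (adjusted p between 0.0531 and 0.0685) with the difference at 0.13 in each such fit, and its other probe sets read 0.08 and 0.07 without passing.

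Rubcn codes for Rubicon, a brake on the Uvrag-containing form of the kinase that is also needed for LC3-associated phagocytosis. It read 4.72, 4.68, 4.56 and 4.62 in Meis1 deleted cells and 4.41, 4.36, 4.33 and 4.37 in the others. All 4 treated arrays were higher, by 0.28 ± 0.0495 (limma adjusted p = 0.00194), although both levels lay just above the filter at 4.29. With an offset of 64 on the linear scale, which shrinks changes of dim genes, the difference was 0.07 and still passed (limma adjusted p = 0.0155). The remaining subunits did not pass: Pik3r4, the regulatory kinase subunit, at 0.26, Atg14 and Uvrag, which direct the kinase to early and late steps, at 0.14 and 0.06, and Ambra1, an activator of the complex, at -0.04. For Pik3r4 and Atg14 the Meis1 deleted replicate 1 array was the highest of the 8 (7.77 and 7.38), and without it the differences were 0.14 and 0.06.

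**Figure D2:**
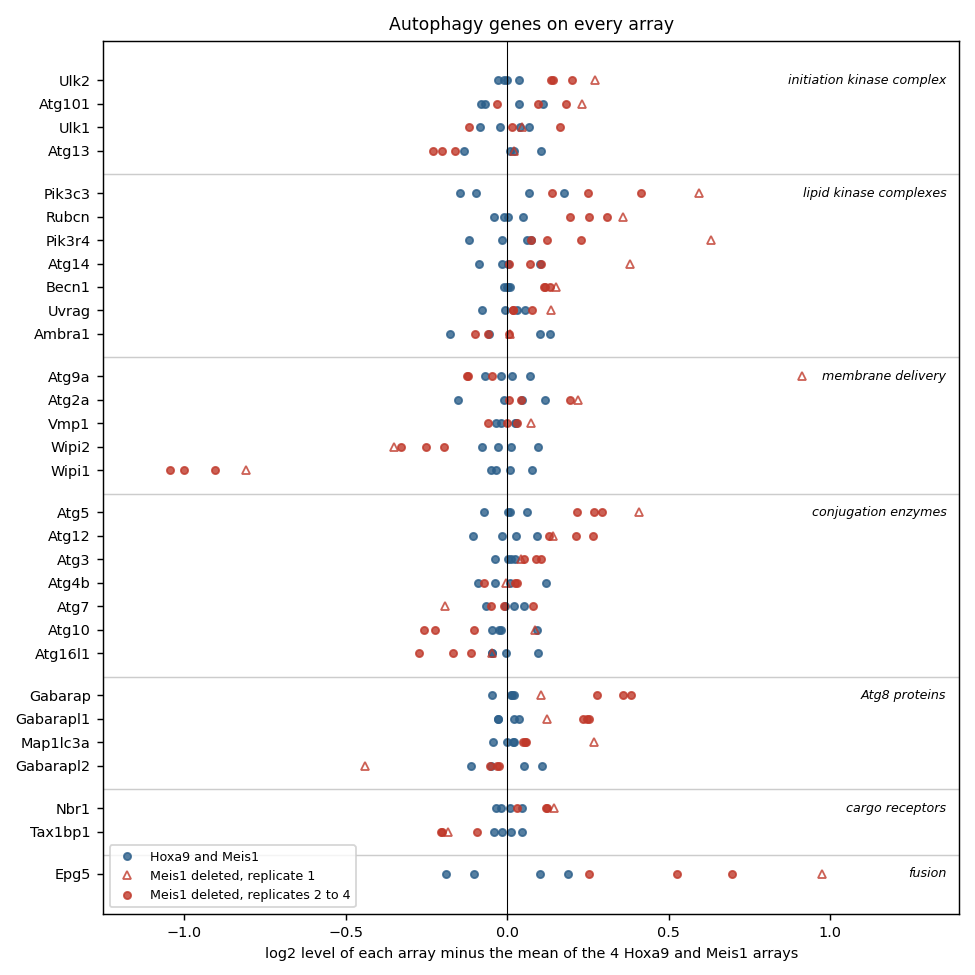
Level of each autophagy gene on every array, as log2 value minus the mean of the 4 Hoxa9 and Meis1 arrays (blue), with Meis1 deleted replicates 2 to 4 as red points and replicate 1 as an open triangle. Wipi1 is separated by the widest gap, and replicate 1 lies far from its group for Atg9a (6.99 against 5.95 to 6.03) and Gabarapl2 (9.06 against 9.45 to 9.48).

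Membrane delivery held 2 falls and no rise among 5 genes, against 17.5% of all genes that fell and 18.1% that rose. Both falls were Wipi genes. Wipi proteins bind the phosphoinositide made by Pik3c3, and Wipi2 brings the conjugation machinery to it through Atg16l1. Wipi1 read 8.81, 8.62, 8.72 and 8.58 in Meis1 deleted cells and 9.59, 9.63, 9.57 and 9.70 in the others. Every array with Meis1 was above every array without it, and the level in Meis1 deleted cells was 0.522 times that in the others (log2 difference -0.94 ± 0.0612; limma adjusted p = 2.89e-06). Wipi1 passed in each of the 21 other settings, between -1.06 and -0.76. Within the bioB sets it read -0.89 (3 Meis1 deleted arrays) and -1.06 (a single Meis1 deleted array, assumed to vary like the others). All 6 Wipi1 probe sets fell in the fit over 45037 probe sets with no filter: 4 of them by 0.75 to 1.07, and the other two by 0.23 and 0.19, the last of these below the filter.

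Wipi2 read 6.77, 6.79, 6.92 and 6.86 in Meis1 deleted cells and 7.04, 7.09, 7.21 and 7.13 in the others. The groups did not overlap, and Wipi2 fell by 0.28 (SE 0.0559; limma adjusted p = 0.00378). Another Wipi2 probe set of similar brightness did not pass (-0.04; 6.95 ± 0.0491 against 6.99 ± 0.0896), and the mean of the kept probe sets gave -0.16 (limma adjusted p = 0.00787). With the offset of 64 the difference was -0.19. The family has 2 further members that are no part of the 34 genes, and both fell as well: Wdr45b, by 0.26 (9.13 against 9.39; limma adjusted p = 6.52e-04), and Wdr45, by 0.29 (7.73 against 8.02; adjusted p = 0.00404). Among all genes 17.5% fell. Wdr45 did not pass within the bioB set that holds a single Meis1 deleted array (-0.26; adjusted p = 0.135). The grouping of these 4 genes was made after their values were seen and carries no test of its own.

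**Figure D3:**
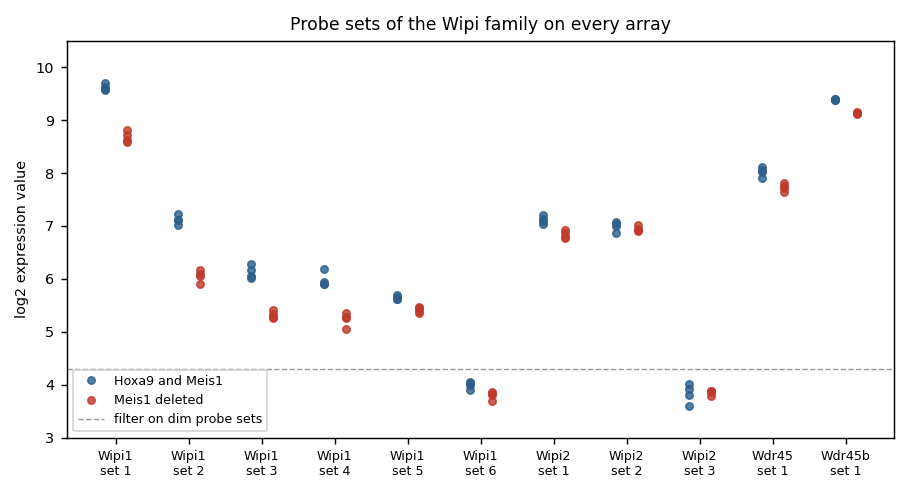
Log2 expression value on each of the 4 Hoxa9 and Meis1 arrays (blue) and 4 Meis1 deleted arrays (red), for every probe set of Wipi1 and Wipi2 and the one used for Wdr45 and for Wdr45b; the dashed line is the filter on dim probe sets (4.29). The groups are apart in all 6 Wipi1 probe sets and in Wdr45 and Wdr45b, but for Wipi2 only in the first of its 3.

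The other genes of membrane delivery did not pass. Vmp1, which moves lipid at the endoplasmic reticulum, read 11.21 ± 0.0558 and 11.19 ± 0.0316, a difference of 0.01 with a 95% interval of -0.09 to 0.11. Atg2a, the lipid transfer protein, differed by 0.11. Atg9a, the lipid scramblase of the seed vesicles, read 6.99 on Meis1 deleted replicate 1 and between 5.95 and 6.03 on the other three, against 6.01 to 6.15 with Meis1. Its difference was 0.15 with all arrays and -0.10 without replicate 1, and neither passed (limma adjusted p = 0.611 and 0.148).

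Among the 7 conjugation genes, 2 rose and none fell, where 18.1% of all genes rose and 17.5% fell. Both risen members code for parts of 1 product, the conjugate of Atg12 with Atg5. Atg5 read 8.45, 8.34, 8.31 and 8.26 in Meis1 deleted cells and 8.05, 8.10, 7.97 and 8.04 in the others. All 4 Meis1 deleted arrays were higher, by 0.30 ± 0.0545 (limma adjusted p = 0.00238). Its other kept probe sets read 0.18 and 0.05 without passing, and their mean with the first gave 0.17 (adjusted p = 0.104). Atg12 read 9.58, 9.66, 9.57 and 9.71 in Meis1 deleted cells and 9.43, 9.34, 9.53 and 9.47 in the others. The groups were close but did not overlap, with a log2 difference of 0.19 ± 0.0565 (limma adjusted p = 0.0287). Another kept probe set of Atg12 read -0.03, and 5 of the 8 fits that left out 1 array lost the call (adjusted p up to 0.0771, without Hoxa9 and Meis1 replicate 2).

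Atg16l1, which binds that conjugate, differed the other way, by -0.15 (limma adjusted p = 0.0843), and without Meis1 deleted replicate 1 it fell by 0.18 (adjusted p = 0.0297). Atg10, the enzyme that hands Atg12 on to Atg5, did likewise, at -0.12 with all arrays (limma adjusted p = 0.253) and a fall of 0.20 without that array (adjusted p = 0.0210). Atg7, the activating enzyme shared by both conjugation branches, read 6.58, 6.77, 6.72 and 6.85 in Meis1 deleted cells and 6.79, 6.83, 6.71 and 6.77 in the others. The groups overlapped, with a difference of -0.04 (95% interval -0.18 to 0.10; limma adjusted p = 0.643). Atg3, the enzyme that passes Atg8 proteins to lipid, differed by 0.07 without passing although its groups did not overlap. Atg4b, the protease that trims Atg8 proteins, gave -0.00469 (limma adjusted p = 0.956). For Atg7 and Atg4b a dimmer probe set fell (by 0.21 and 0.45; adjusted p = 0.00979 and 0.00703 over all probe sets), so the gene call there rests on which probe set stands for the gene.

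The Atg8 proteins are the tags fixed to the autophagosome membrane, and the Gabarap branch rose in part. Gabarap read 11.05, 11.32, 11.30 and 11.22 in Meis1 deleted cells and 10.96, 10.96, 10.89 and 10.95 in the others. All 4 Meis1 deleted arrays were higher, replicate 1 by the least, and the log2 difference was 0.28 ± 0.0645 (limma adjusted p = 0.00816). Gabarapl1 read 9.08, 9.21, 9.21 and 9.19 in Meis1 deleted cells and 8.93, 8.93, 8.98 and 8.995 in the others. Again no array overlapped, with a difference of 0.21 ± 0.0470 (limma adjusted p = 0.00628), and the other Gabarapl1 probe set rose by 0.35 (7.89 against 7.54; adjusted p = 3.05e-04 over all probe sets).

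Gabarapl2 did not pass, at -0.14 (limma adjusted p = 0.318), where Meis1 deleted replicate 1 read 9.06 and the other 7 arrays 9.39 to 9.61. Without that array its difference was -0.04. Map1lc3a, of the LC3 branch, differed by 0.11 (limma adjusted p = 0.193), its groups apart but with Meis1 deleted replicate 1 at 8.69 and the other three at 8.47 to 8.48. Map1lc3b, the LC3 gene most used as a marker, had no probe set annotated to it alone and was not analysed here.

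Cargo receptors tie Atg8 proteins to what is to be degraded, and of the 4 listed only Nbr1 and Tax1bp1 could be tested. Tax1bp1, a receptor for ubiquitin-marked cargo that also restrains NF-kB signalling, read 11.02, 11.00, 11.01 and 11.11 in Meis1 deleted cells and 11.16, 11.19, 11.22 and 11.25 in the others. All 4 Meis1 deleted arrays were lower, and Tax1bp1 fell by 0.17 (SE 0.0457; limma adjusted p = 0.0173). Its other probe sets read -0.15 and 0.44 without passing, the mean of the 3 was 0.04, and without Hoxa9 and Meis1 replicate 4 the call was lost (-0.16; adjusted p = 0.0507). Nbr1, a receptor for protein aggregates and peroxisomes, differed by 0.11 (limma adjusted p = 0.103). Sqstm1 and Optn had no probe set of their own symbol alone and were not analysed here.

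Epg5, the tether that brings autophagosomes to late endosomes and lysosomes, had the largest rise of the members. It read 6.92, 6.21, 6.48 and 6.65 in Meis1 deleted cells and 5.76, 5.85, 6.05 and 6.14 in the others. The lowest Meis1 deleted array was just above the highest of the other group. The level in Meis1 deleted cells was 1.53 times that in the others (log2 difference 0.61 ± 0.146, limma adjusted p = 0.00999). Epg5 passed in each of the 8 fits that left out 1 array. Without Meis1 deleted replicate 1, its highest array, the log2 difference was 0.49 (limma adjusted p = 0.0101). With the offset of 64 its log2 difference was 0.34. Within the bioB sets it was 0.73 (set 1, 3 Meis1 deleted arrays) and 0.55 (set 2, a single Meis1 deleted array). The Hoxa9 and Meis1 arrays read 5.76 and 5.85 in set 1 and 6.05 and 6.14 in set 2.

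Across the 62 probe sets of the members, tested with no filter, 11 rose, 10 fell and 41 did not pass, against 18.8% of all 45037 probe sets that passed. These shares are not like for like, since 55 of the 62 lay above the filter, as did 27022 of the 45037. In 13 probe sets the Meis1 deleted arrays were all above and in 10 all below the others, against 23.9% of all probe sets in either direction. Of the 17 members with more than 1 probe set, 0 had a risen and a fallen one. The 10 falls were the 6 of Wipi1 and 1 each of Wipi2, Tax1bp1, Atg4b and Atg7.

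Leaving out Meis1 deleted replicate 1 kept the number of rises at 9 and moved the falls from 3 to 6, the additions being Atg13, Atg10 and Atg16l1. Over all genes the same fit moved the falls from 2066 to 2450 of 11836 and the share that passed from 35.5% to 39.5%, so the falls among the members stayed near the background. The median difference of the members was then 0.0568. Within the bioB set of 3 Meis1 deleted and 2 other arrays, 5 members rose and 2 fell, where 23.6% of all genes passed. Within the set of 1 Meis1 deleted and 2 other arrays, where the lone array was assumed to vary like the others, 0 rose and 1 fell (Wipi1), where 14.4% of all genes passed. With the set as a block the counts were 9 and 3, where 35.8% of all genes passed.

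**Figure D4:**
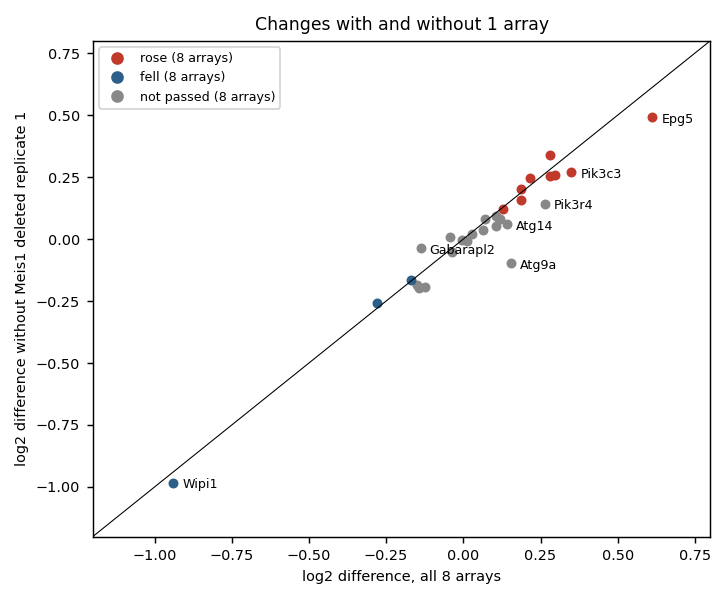
Log2 difference (Meis1 deleted minus Hoxa9 and Meis1) of the 30 genes with all 8 arrays (horizontal) and without Meis1 deleted replicate 1 (vertical), coloured by the call with 8 arrays; the line marks equal values. Most genes lie near the line, while Atg9a moves from 0.15 to -0.10 and Pik3r4 from 0.26 to 0.14.

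The genes around this machinery were counted in 5 lists, 81 genes tested, of which 34 rose and 13 fell (median 0.10; all genes -0.00444). Each count below stands beside 18.1% of all genes that rose and 17.5% that fell. The highest share of rises was in fusion and tethering, the step that Epg5 serves: 12 of 15 rose, none fell, and the median was 0.33, with Snap29 at 0.15, Ykt6 at -0.11 and Vps16 at -0.11 not passing. Plekhm1, an adaptor between Rab7 and the tethering complex, rose by 0.64 ± 0.0640 (limma adjusted p = 5.63e-05), and Vamp8, a membrane fusion protein of the lysosome, by 0.38 ± 0.0400 (adjusted p = 8.43e-05). The lysosomal membrane proteins Lamp2 and Lamp1 rose by 0.34 and 0.33. For Plekhm1 the mean of its probe sets gave 0.16. Within the 2 bioB sets, 8 and 6 of the 15 rose, and with the set as a block 12 rose and 1 fell. Lysosomal genes are also prominent in macrophages. The 12 macrophage markers tested rose by a median of 3.32, and the part of that rise in this list was not tested.

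Of 12 other core genes, 6 rose and 4 fell. Trp53inp1 and Tecpr1 rose at least 2-fold, by 1.03 ± 0.0437 and 1.06 ± 0.0858 on the log2 scale (limma adjusted p = 1.48e-07 and 1.34e-05). Trp53inp1 is a p53 target that binds Atg8 proteins, and Tecpr1 binds the Atg5 conjugate at lysosomes. Sh3glb1, a membrane-bending partner of Uvrag, rose by 0.72, or by 0.39 with the offset of 64, while Wdr45b fell as given above. The mean of the probe sets of a gene gave 0.53 for Trp53inp1 and 0.81 for Tecpr1. With the offset of 64 they rose by 0.87 and 0.79, so the 2-fold size depended on these choices.

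The 16 other selective receptors held 4 rises and 3 falls (median -0.06). Without Meis1 deleted replicate 1 they held 4 rises and 6 falls, where 39.5% of all genes passed. With all arrays, the largest changes among those that passed included falls of Bnip3 and Bnip3l and a rise of Wdfy3 (0.60, limma adjusted p = 0.0257). Bnip3 fell from 11.78 to 10.61 (log2 difference -1.17 ± 0.0450; limma adjusted p = 7.23e-08) and its relative Bnip3l from 10.73 to 10.18 (-0.55 ± 0.0605; adjusted p = 1.04e-04). Both are mitophagy receptors induced by low oxygen. Other receptors of the list that act at mitochondria did not pass: Fundc1 read 0.01, Phb2 -0.06, Bcl2l13 -0.05 and Fkbp8 -0.07. Pink1, a mitophagy kinase of the same list, read -0.39 without passing (limma adjusted p = 0.0579). Its Meis1 deleted replicate 1 read 8.99 and the other three 8.28 to 8.37, against 8.80 to 8.95 with Meis1. Of the receptors for the endoplasmic reticulum, Tex264 and Sec62 rose by 0.33 and 0.24 and Ccpg1 fell by 0.24, while Retreg1 and Rtn3 read -0.08 and 0.07 without passing. For Sec62 the mean of its probe sets was -0.00586.

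Among 28 genes of mTORC1 and AMPK, the kinases that restrain and promote autophagy, and of their regulators, 9 rose and 4 fell (median 0.03). Mtor rose by 0.28 (limma adjusted p = 0.0333), and none of the AMPK subunits tested passed. Fnip2, a partner of folliculin on the lysosome, rose by 2.15 ± 0.0449, from 8.17 to 10.32 (limma adjusted p = 1.06e-09). Rragd, a Rag GTPase that recruits mTORC1 to the lysosome, rose by 1.33 ± 0.0579 (adjusted p = 1.81e-07), or by 0.50 with the offset of 64. Sesn1, a sestrin of the p53 response, rose by 0.75, and Ddit4, an inhibitor of mTORC1 induced by stress, fell by 0.90.

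Of 10 transcription factors that act on autophagy genes, 3 rose and 2 fell (median 0.13). Mitf rose by 0.79 ± 0.0599 (limma adjusted p = 8.69e-06), while its relatives Tfeb and Tfe3, which bind the same E-box, differed by 0.11 and 0.17 and did not pass (adjusted p = 0.124 and 0.140). Whether Mitf differed from Tfeb and Tfe3 was not tested. Atf4, the factor of the amino acid response, fell by 0.51 ± 0.0474 (adjusted p = 3.63e-05), Nfe2l2, the factor of the antioxidant response, rose by 0.37, and Zkscan3, a repressor of autophagy genes, rose by 0.29. The mean of its probe sets gave 0.16 for Nfe2l2.

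**Figure D5:**
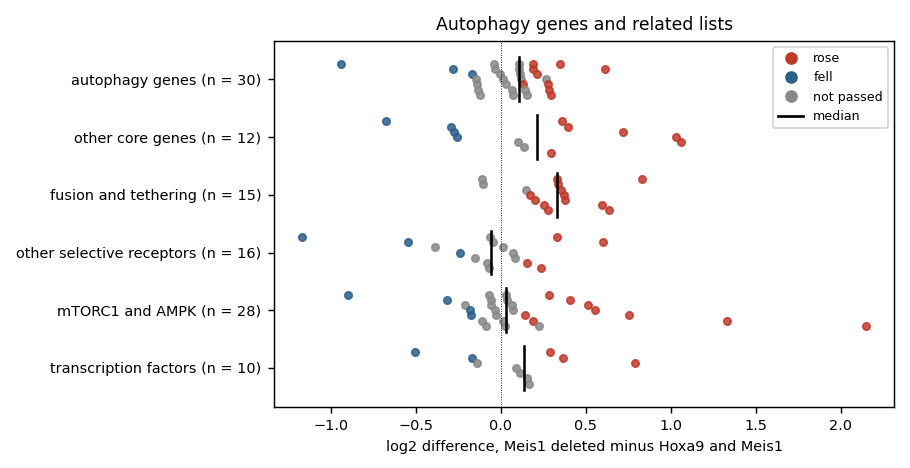
Log2 difference (Meis1 deleted minus Hoxa9 and Meis1) of each tested gene of the autophagy genes and of the 5 lists around them; red rose, blue fell, grey did not pass an adjusted p of 0.05, and the bar is the median of the list. In the fusion and tethering list 12 of 15 genes are red and the median is 0.33, against 0.106 for the 30 autophagy genes.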

How the data were processed

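The deposited table gives each probe set a log2 value on each array. That the scale is log2 was judged from the range (2.65 to 13.2), and that the authors normalized the arrays to each other from their medians (4.69 to 4.74). Per the submitters' processing notes MAS5 was used, in a role they do not state. How probes were summarised, and on which build, is not given in the sources here. The number of arrays limits the precision.

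Of 45037 probe sets that are not controls, 28898 had 1 symbol in GEO's platform annotation, 551 several and 15588 none. A RefSeq gene table changed 0 symbols. Probe sets in the lowest 40% by mean (below 4.29) were left out, limma 3.58.1 in R 4.3.3 (lmFit and eBayes, no covariate) was fitted on the 27022 kept, and each gene was then read from its probe set of highest mean. P-values were adjusted by Benjamini-Hochberg over 11836 genes, with a threshold of 0.05. Every difference is the Meis1 deleted level less that of the other group, given with its standard error, and levels carry the standard deviation over 4 arrays. The procedure was tested on simulated data. Plots were drawn in matplotlib 3.10.9 (Python 3.11.15).

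The members and lists were chosen with earlier results of these data known. Values on every array are given for all 12 members that passed, and for Ulk1 and Atg7. The rule took up to 8 rises and 8 falls among members that passed and named 7 genes whatever their test (Sqstm1, Map1lc3b, Gabarapl1, Ulk1, Becn1, Atg5 and Atg7), of which Sqstm1 and Map1lc3b could not be read. Up to 4 genes with the smallest p are named from each list around them. Wdr45, Snap29, Ykt6, Vps16, Tfeb, Tfe3, Fundc1, Phb2, Bcl2l13, Fkbp8, Ccpg1, Retreg1 and Rtn3 were named after their values were seen. Pink1, Wdfy3, Mtor and the AMPK subunits were also named in this way. Replicate numbers were not used to pair the samples in the main fit. Alternatives covered the offset, normalization, the filter, the choice of probe set, the variance model, weights for the arrays, a replicate block, each array left out, and the bioB sets as a block and apart. The bioB block with Meis1 deleted replicate 1 also left out was chosen after seeing the data. Sqstm1, Map1lc3b and Optn were not analysed here.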

Additional observations from a re-analysis of the deposited data

Results flagged for a closer look

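In 5 of 60 groups of 4 arrays (30 members in 2 groups), the highest or lowest array stood outside the rest by Dixon's criterion, where chance alone gives about 1 in 20. Atg9a read 6.987 on Meis1 deleted replicate 1 and 5.949 to 6.029 on the other three of its group. Map1lc3a read 8.693 on the same array, against 8.473 to 8.482. Gabarapl1 read 9.082 there, against 9.194 to 9.213, and Gabarapl2 read 9.064, against 9.451 to 9.479. Gabarap read 10.89 on Hoxa9 and Meis1 replicate 3, against 10.95 to 10.96. Of these 5 values, 4 belong to Meis1 deleted replicate 1, the array whose Gapdh 3′ minus 5′ difference was 0.725. The part of that difference in these values was not tested.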

How the results depend on the processing

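Wipi1 alone of the 12 called members passed in all 21 alternatives, and 8 of the 12 passed in all 8 fits that left out 1 array. Of the 18 others, 6 passed in at least 1 alternative. With 1 array left out, the risen members numbered 6 to 9, the fallen 2 to 6, and the median difference of the members ran from 0.0568 to 0.129. Of all genes, 28.9% to 39.5% passed in these fits. The median was 0.0712 with the offset of 64, 0.0609 with array weights and 0.0511 with the bioB block and Meis1 deleted replicate 1 left out. Fallen members numbered 6 with array weights and with that last pair of choices, where 2648 and 2848 of all 11836 genes fell. They numbered 5 when each kept probe set was tested alone. Within bioB set 1, 2799 genes passed and 5 members rose. Within set 2, 1704 genes passed, 0 members rose and 1 fell, and 18 genes of the other lists rose and 5 fell. With the bioB block and Meis1 deleted replicate 1 left out, 20 genes of the other lists fell, where 45.7% of all genes passed. The sets hold fewer arrays, and the cause of the other shifts was not tested.

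Members near 0 changed sign. With 1 array left out, Ulk1 ran from -0.0192 to 0.0755, Ambra1 from -0.0946 to 0.00840, Atg9a from -0.0977 to 0.248, Vmp1 from -0.00932 to 0.0348, Atg4b from -0.0352 to 0.0353 and Atg7 from -0.0835 to 0.00794. Vmp1 gave -0.00571 with quantile normalization. Array weights gave -0.0108 for Vmp1, -0.000608 for Ulk1 and -0.0647 for Atg9a. Averaging probe sets gave -0.00432 for Ulk1, 0.0395 for Tax1bp1 and -0.00586 for Sec62. Atg4b gave 0.0179 with the bioB block and 0.0506 within set 1. Within set 2, Atg9a gave -0.0718 and Atg7 0.117. The block without Meis1 deleted replicate 1 gave -0.0873 for Atg9a, 0.0103 for Atg4b and 0.00805 for Atg7.

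Same-numbered arrays of the 2 groups correlated at 0.0252, 0.224, -0.131 and 0.289 in their deviations. These few values cannot tell whether the number marks a pair, and the main fit used no pairing. With the replicate block, 7 members rose and 3 fell, where 33% of all genes passed. Becn1 and Atg12 lost their call there (adjusted p = 0.0700 and 0.0603 with limma).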
